A study of Mus musculus with 8 samples.

Results

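The miR-183, miR-96 and miR-182 cluster consists of 3 microRNAs (miRNAs) that are cut from neighbouring hairpins on mouse chromosome 6. They were picked out by name from 567 mouse miRNAs on the array (mmu-miR-183, mmu-miR-96 and mmu-miR-182 in the array's naming), and all 3 were found. They were chosen because the array software's detection flags already showed signal with CpG and none without it, so that contrast is described here and not tested. The cells were dendritic cells grown from C57BL/6 bone marrow, a standard inbred mouse strain, in the growth factor GM-CSF at 40 ng/ml, and harvested as the non-adherent fraction at day 9 of culture. One group of 4 samples then received 10 µM of the class B oligonucleotide CpG ODN1826, a short DNA sensed by the receptor TLR9, overnight. The control group of 4 samples went without it, and the labels call its vehicle medium in one place and PBS in another. Both groups thus shared strain, growth factor and culture time. The labels number the replicates but do not tie them to separate animals or cultures, so any spread or p-value covers differences between these samples only, which may be technical. The array names use the same numbers in both groups, and whether equal numbers share a culture is not stated. RNA was read in 1 colour on the 8 arrays of a single slide.

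Clustered miRNAs are transcribed together as one long primary transcript, cut into hairpins in the nucleus and trimmed in the cytoplasm. The mature strand that remains pairs with target mRNAs mainly through its seed, the bases from position 2 to 8, and lowers their output. The miR-183 cluster is best known from sensory organs: it is abundant in retina and in the hair cells of the inner ear, and changes in the miR-96 seed cause hearing loss. In immune cells miR-182 is known for its rise in activated helper T cells, and mRNAs of the Foxo transcription factors are described targets of miR-96 and miR-182.

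The 3 mature sequences are shown because they determine which probes can tell the members apart. They are from RefSeq (assembly GRCm38.p6), 5′ to 3′, with the seed in capitals.
miR-183-5p: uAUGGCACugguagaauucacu
miR-96-5p: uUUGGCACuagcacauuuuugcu
miR-182-5p: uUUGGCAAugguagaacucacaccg

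No pair of members has the same seed. Counting positions from 1 at the 5′ end, miR-96 and miR-182 have the same bases at positions 2 to 7 and differ by C8A. Between miR-96 and miR-183 the seeds differ by U2A and are equal at positions 3 to 8. The miR-182 and miR-183 seeds differ at both places, U2A and A8C. Over their whole length the last pair is the most alike: 18 of 22 aligned positions hold the same base (81.8%), and both have the stretch ugguagaa from position 9. The same count was 13 of 22 positions for miR-96 with miR-183 (59.1%) and 12 of 23 for miR-96 with miR-182 (52.2%).

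On GRCm38.p6 the hairpins lie on the minus strand of chromosome 6, at 30169668 to 30169737 for Mir183 (70 bases), at 30169446 to 30169551 for Mir96 (106 bases) and at 30165918 to 30165992 for Mir182 (75 bases). Mir183 and Mir96 are separated by 116 bases, and Mir96 and Mir182 by 3453 bases. All 3 hairpins lie inside the long non-coding RNA gene Mirc35hg, and the nearest coding genes are Nrf1 and Ube2h. The array's own annotation uses the older build mm9, where the probe targets of miR-182 and miR-96 start 3544 bases apart and those of miR-96 and miR-183 start 205 bases apart. The mature sequences have the same spacings in GRCm38.p6.

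The promoter of Mirc35hg is shown because a shared start site is where the members would be switched on together. RefSeq places the window, 250 bases before to 50 after the annotated start, at chr6:30174076-30174375 on the minus strand of GRCm38.p6. Capitals mark an AP-1 motif and a CCAAT box.
Mirc35hg promoter: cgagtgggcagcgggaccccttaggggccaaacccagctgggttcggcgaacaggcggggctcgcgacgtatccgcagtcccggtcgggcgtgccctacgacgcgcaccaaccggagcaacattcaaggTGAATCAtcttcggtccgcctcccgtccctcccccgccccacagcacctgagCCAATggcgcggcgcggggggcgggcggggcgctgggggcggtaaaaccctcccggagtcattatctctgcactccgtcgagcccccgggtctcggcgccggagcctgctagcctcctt

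The window is rich in G and C (70.3%, against a median of 52.7% over 32851 promoter windows of the same length) and holds 35 CG pairs (median 7). Motifs were searched on both strands. AP-1 (TGANTCA) matched at 1 place, 121 bases before the start (position -121), and 7.81% of all windows held a match. CCAAT matched at -69 and is present in 37.4% of windows. The GC box GGGCGG, the site of Sp1-type factors, matched 4 times, at -88, -51, -47 and -33, and the matches at -51 and -47 overlap. It is present in 35.7% of windows. The letters of CRE (TGACGTCA), the E-box CACGTG, the interferon-stimulated response element (searched as its consensus) and the NF-kB consensus were not found in this window. They occur in 1.79%, 7.15%, 3.44% and 8.46% of all windows. A match is only a run of letters: binding was not measured.

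The array carried 2 probes for each member, each in 10 spots, so that every miRNA was read by 20 spots per array and 80 per group. The deposited total gene signal sums both probes after background subtraction. It is a linear intensity, with no scaling between arrays, and falls below 0 where spots were dimmer than their background. Its values on the arrays follow, in the order of replicates 1 to 4.

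miR-183, the member nearest to the start of the primary transcript, read 0.663, 0.889, 0.386 and 0.125 intensity units in untreated cells. With CpG its total gene signal was 3.08, 6.77, 5.72 and 3.76. Every CpG array was above every untreated array, and the untreated values lay close to 0. The group means were 0.516 ± 0.332 and 4.83 ± 1.71 (SD, n = 4), a difference of 4.32 units (SE 0.872).

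miR-96, the middle hairpin, read 5.60, 4.72, 6.43 and 2.85 intensity units in untreated cells. With CpG its total gene signal was 11.8, 24.1, 18.6 and 15.3. The groups did not overlap, and replicates 2 and 3 were again the highest CpG arrays. The means were 4.90 ± 1.53 and 17.4 ± 5.21 (SD, n = 4), a difference of 12.5 units (SE 2.72).

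miR-182, the farthest hairpin, read -0.234, -0.538, -0.644 and -0.220 intensity units in untreated cells. With CpG its total gene signal was 2.60, 6.88, 5.35 and 2.17. All untreated values were below 0 and all CpG values above it, with CpG replicates 2 and 3 the highest. The means were -0.409 ± 0.215 and 4.25 ± 2.25 (SD, n = 4), a difference of 4.66 units (SE 1.13).

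One other arm of these hairpins had probes on the array, listed as miR-183*, the strand that is usually discarded when miR-183 is trimmed. Its total gene signal was below 0 on all 8 arrays, with means of -2.20 ± 0.768 in untreated and -2.18 ± 0.654 in CpG-treated cells (SD, n = 4). It was detected on no array.

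**Figure D1:**
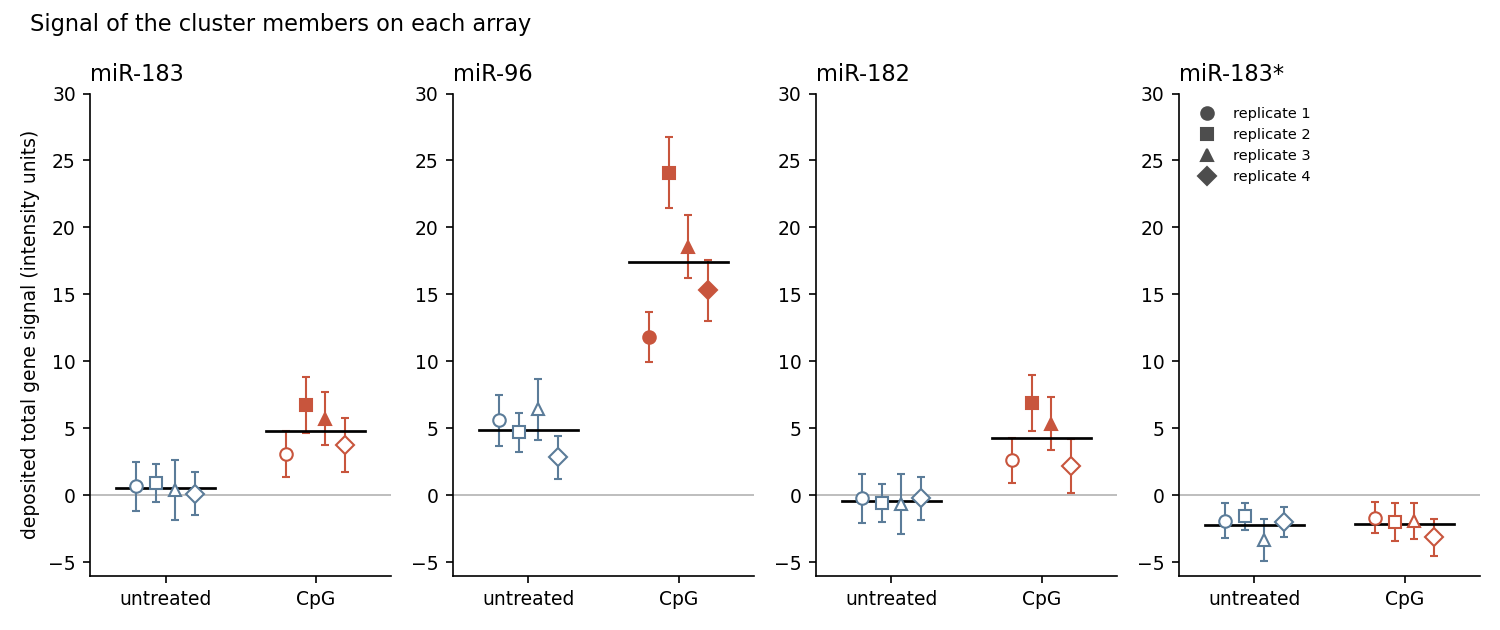
Deposited total gene signal (intensity units, linear axis, same range in each panel) of the 3 members and miR-183* on each array. Symbols mark the replicate, filled where the array software called the miRNA detected, error bars are the deposited error of that array and black lines are group means; the CpG arrays of the 3 members lie above all untreated arrays, and miR-183* lies below 0 in both groups.

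Non-overlap of this unscaled signal was common on these arrays. All CpG arrays exceeded all untreated arrays for 98 of 567 mouse miRNAs (17.3%), and for 22 of the 352 miRNAs that no untreated array detected (6.25%), the members among them. Since the members were chosen on this contrast, nothing is read from their place in these counts. For the 177 mouse miRNAs that every array detected, the 75th percentile of the signals of an array was 101 to 144 intensity units in untreated and 157 to 280.5 in CpG-treated cells, so the CpG arrays were brighter altogether. The geometric mean of the array's "hur" control features was 33055 to 38156 in untreated and 34708 to 53979 in CpG-treated cells. The untreated arrays detected 191 to 203 mouse miRNAs and the CpG arrays 213 to 236. The 2 brightest arrays by the 75th percentile were CpG replicates 4 and 2.

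To put the arrays on one scale, the mean processed signal of a member's spots was taken per probe and then over its probes, and divided by the 75th percentile of the array. This mean is not the total gene signal above, so the percentages cannot be worked out from those values. On this scale miR-183 was at 0.463%, 0.530%, 0.190% and 0.0756% of the 75th percentile in untreated cells. With CpG it was at 1.39%, 1.97%, 2.26% and 0.981%. The groups stayed apart, with scaled means of 0.314% ± 0.217 and 1.65% ± 0.575 (SD, n = 4) and a difference of 1.34 percentage points (SE 0.307).

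miR-96 was at 3.91%, 2.81%, 3.17% and 1.73% of the 75th percentile in untreated cells. With CpG it was at 5.35%, 7.01%, 7.33% and 4.00%. The groups nearly touched: the lowest CpG array exceeded the highest untreated array by only 0.0898 percentage points. The scaled means were 2.90% ± 0.907 and 5.92% ± 1.55 (SD, n = 4), a difference of 3.02 percentage points (SE 0.898).

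miR-182 was at -0.163%, -0.320%, -0.317% and -0.133% of the 75th percentile in untreated cells. With CpG it was at 1.18%, 2.00%, 2.11% and 0.567%. The groups did not overlap, with scaled means of -0.234% ± 0.0992 and 1.47% ± 0.730 (SD, n = 4) and a difference of 1.70 percentage points (SE 0.369). CpG replicate 4, the brightest array of all, had the lowest scaled value of the CpG group for each of the 3 members, and CpG replicate 3 had the highest.

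Over all 567 miRNAs, scaled signals lay higher on every CpG array than on every untreated array for 41 (7.23%) and lower for 46 (8.11%). A signal below 0 moves towards 0 when it is divided by a larger number, so a scaled value below 0 can shift up where the intensity does not change. Among the 352 miRNAs that no untreated array detected, 29 lay higher on every CpG array (8.24%). With the floor described next, 16 of 567 did (2.82%). Again nothing is read from the members' place among them. On the log2 scale values under 1.07% of the 75th percentile were set to that floor. miR-96 stood above the floor on all arrays, at a mean of -5.17 ± 0.50 in untreated and -4.12 ± 0.40 in CpG-treated cells (log2 of scaled signal, SD, n = 4), a difference of 1.05 (SE 0.32). No fold is given for it, because untreated miR-96 was below the dimmest signals that counted as well above background there, 4.40% to 8.68% of the 75th percentile, and the fold against that bound was under 1. For miR-182 and miR-183 all untreated arrays and CpG replicate 4 were at the floor, so their floored log2 differences of 0.51 (SE 0.25) and 0.58 (SE 0.24) are set by the floor and are no fold either.

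**Figure D2:**
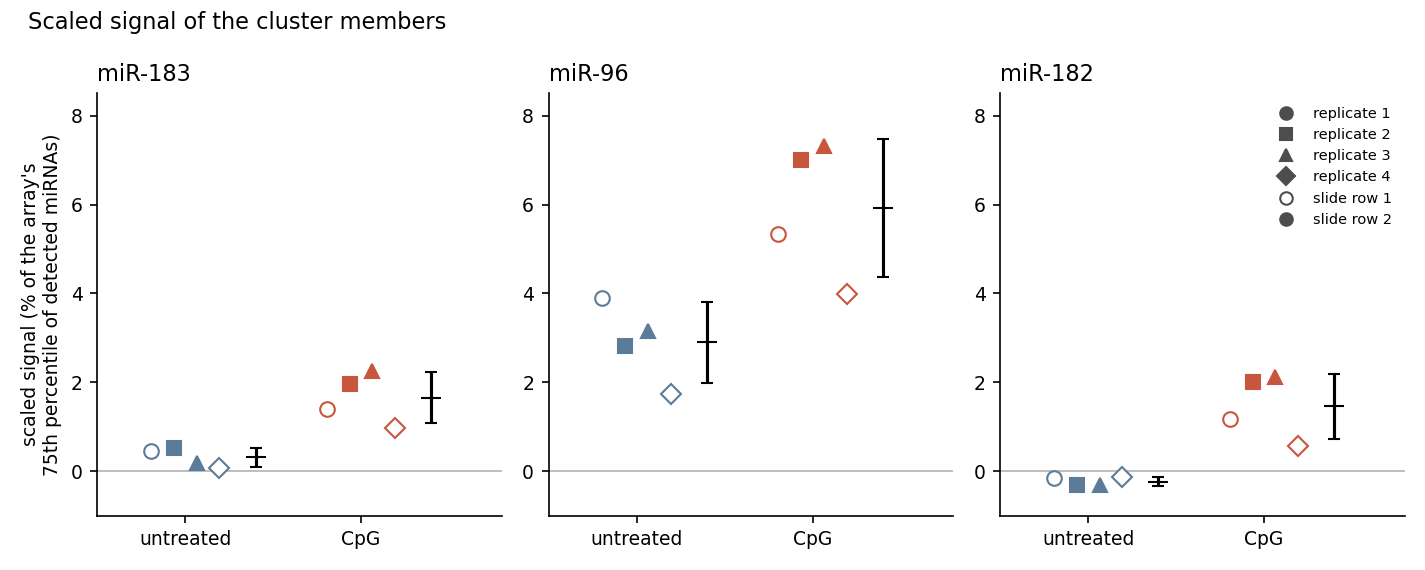
Scaled signal of each member (percent of the array's 75th percentile over miRNAs detected on all arrays, linear axis), with symbols for replicates, filled for arrays in row 2 of the slide, and the group mean with its SD beside the points (n = 4). CpG arrays in row 2 lie highest for each member, and for miR-96 the lowest CpG array (4.00%) and the highest untreated array (3.91%) almost meet.

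The slide holds its arrays in 2 rows, with 2 untreated and 2 CpG arrays in each. Row 1 holds replicates 1 and 4 of both groups and row 2 holds replicates 2 and 3. Within row 1 the CpG mean of total gene signal exceeded the untreated mean by 3.02 units for miR-183, 9.34 for miR-96 and 2.61 for miR-182. Within row 2 the excess was 5.61, 15.7 and 6.71 units. The direction was thus the same in both rows and the size larger in row 2. On the scaled signal the excess in row 1 was 0.917, 1.85 and 1.02 percentage points for miR-183, miR-96 and miR-182, and in row 2 it was 1.76, 4.18 and 2.38.

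The array software calls a miRNA detected where at least 1 of its probes has a signal of more than 3 times its own error, a rule that accounts for all 4616 flags in the files. miR-96 was detected on all 4 CpG arrays and on none of the untreated ones. Only 4 of 567 mouse miRNAs had that pattern (0.705%), miR-96 being one by the rule that chose it. miR-183 and miR-182 were each detected on 2 CpG arrays and no untreated array, a pattern of 11 of 567 miRNAs (1.94%). For both it was the same arrays, CpG replicates 2 and 3. So all members were called together on 2 of the 4 CpG arrays, and on the other 2 miR-96 was called alone. The first 2 are the CpG arrays in row 2 of the slide and the other 2 those in row 1. Joint calls and slide row therefore cannot be told apart. Of the 11 miRNAs, 7 were called on replicates 2 and 4, 2 on replicates 1 and 4, and miR-182 and miR-183 were the 2 on replicates 2 and 3, a count made after the values were seen. At least 2 CpG arrays and no untreated array detected 23 miRNAs (4.06%), and the reverse pattern had 0 miRNAs (0%).

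For miR-183 and miR-182 the CpG arrays without the flag lay between the untreated arrays and the CpG arrays with it. The better probe of miR-183 had a signal of 2.34, 3.62, 3.72 and 2.54 times its error on the CpG arrays, and 0.740, 0.926, 0.942 and 0.342 times on the untreated ones. For miR-182 the ratio was 2.32, 3.94, 3.66 and 2.06 on the CpG arrays and -0.069, 0.0909, 0.0153 and 0.123 on the untreated ones. The CpG arrays called undetected thus fell short of 3 but lay above every untreated array. For miR-96 the ratio was 5.59, 6.89, 6.77 and 5.64 with CpG. Without CpG it was 2.55, 2.31, 2.50 and 1.49, which is under the limit but not near 0.

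**Figure D3:**
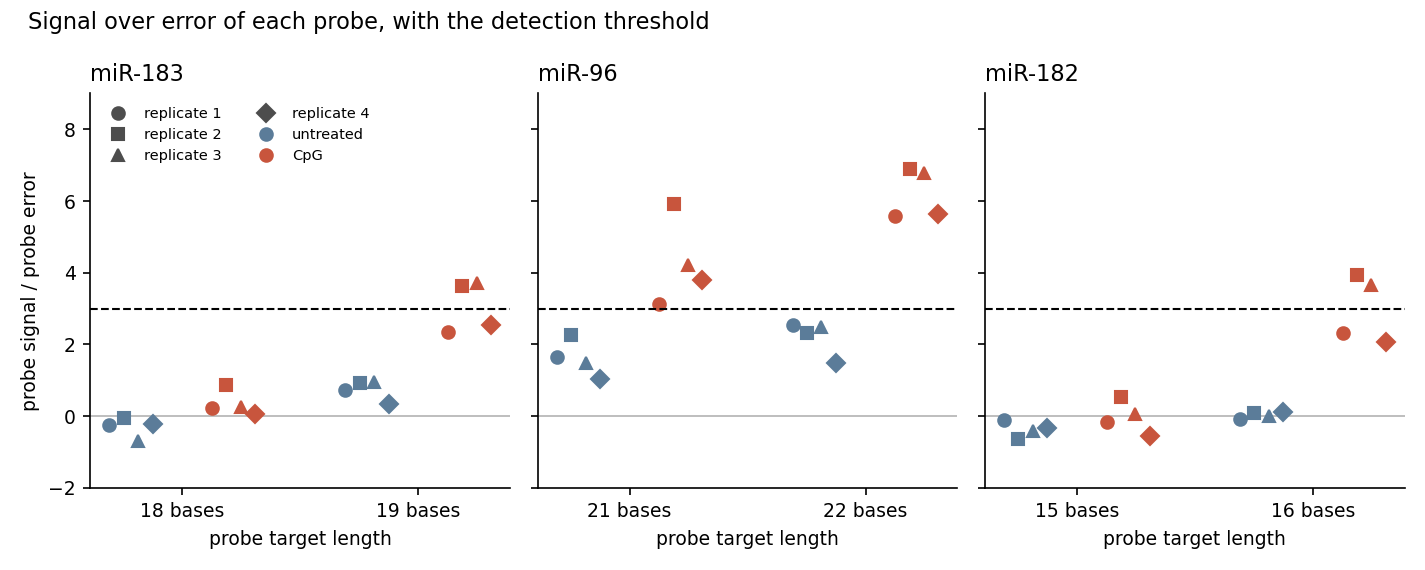
Signal of each probe divided by its own error (linear axis) on every array, by the length of the probe's target, with symbols for replicates and the dashed line at 3 above which a probe counts as detected. miR-96 passes the line with CpG for both probes, while miR-183 and miR-182 pass it only with their longer probe and only on CpG replicates 2 and 3.

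In untreated cells the members also differed by their single spots. Of the 80 untreated spots of miR-96, 64 were called significantly above their background (80%), against 80 of 80 with CpG. Untreated miR-182 had 8 of 80 such spots (10%) and CpG-treated miR-182 44 (55%). Untreated miR-183 had 19 of 80 (23.8%) and CpG-treated miR-183 47 (58.8%). Spots of the 311 miRNAs that no array detected were called so in 11.6% of cases in untreated and 12.8% in CpG-treated cells. Negative control spots were called so in 27.2% and 19.5%. A stricter flag, well above background, was met by 1 miR-96 spot in untreated cells and by 57 of 80 with CpG, where replicates 1 to 4 had 11, 20, 15 and 11 of their 20 spots. Under the same flag miR-182 had 1 spot without and 5 with CpG, and miR-183 had 0 and 2. All these counts include spots with an outlier flag, which the means leave out. For miR-182 the brightest such spots were at 8.55 units on untreated replicate 2, and at 18.8 and 65.6 on CpG replicates 2 and 3. The brightest such miR-96 spot of untreated cells was at 8.55 units, also on replicate 2.

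The 2 probes of a member share the lower end of their target on chromosome 6 (mm9) and differ by 1 base at the other end. For miR-96, targets at 30119506 to 30119526 (21 bases) and to 30119527 (22 bases) both gave more signal on CpG arrays. The mean total probe signal, a deposited value on another scale than the mean of the spots, went from 2.00 ± 0.569 to 6.58 ± 2.78 intensity units for the shorter target and from 2.90 ± 1.06 to 10.9 ± 2.59 for the longer (SD, n = 4).

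For miR-182 and miR-183 the probe that reads 1 base more showed the larger difference, 4.25 units against 0.409 for miR-182 and 3.41 units against 0.911 for miR-183. The miR-182 probe for 30115962 to 30115976 (15 bases) had means of -0.450 ± 0.246 and -0.0414 ± 0.640 units, and its groups overlapped. The probe for 30115962 to 30115977 (16 bases) had means of 0.0408 ± 0.0988 and 4.29 ± 1.67 units. For miR-183 the probe for 30119711 to 30119728 (18 bases) had means of -0.430 ± 0.466 and 0.482 ± 0.521 units, without overlap. The probe for 30119711 to 30119729 (19 bases) had means of 0.945 ± 0.453 and 4.35 ± 1.32 units (SD, n = 4 throughout). The stretch ugguagaa that both mature sequences share is not in miR-96. Whether either probe also captures the other miRNA was not tested.

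**Figure D4:**
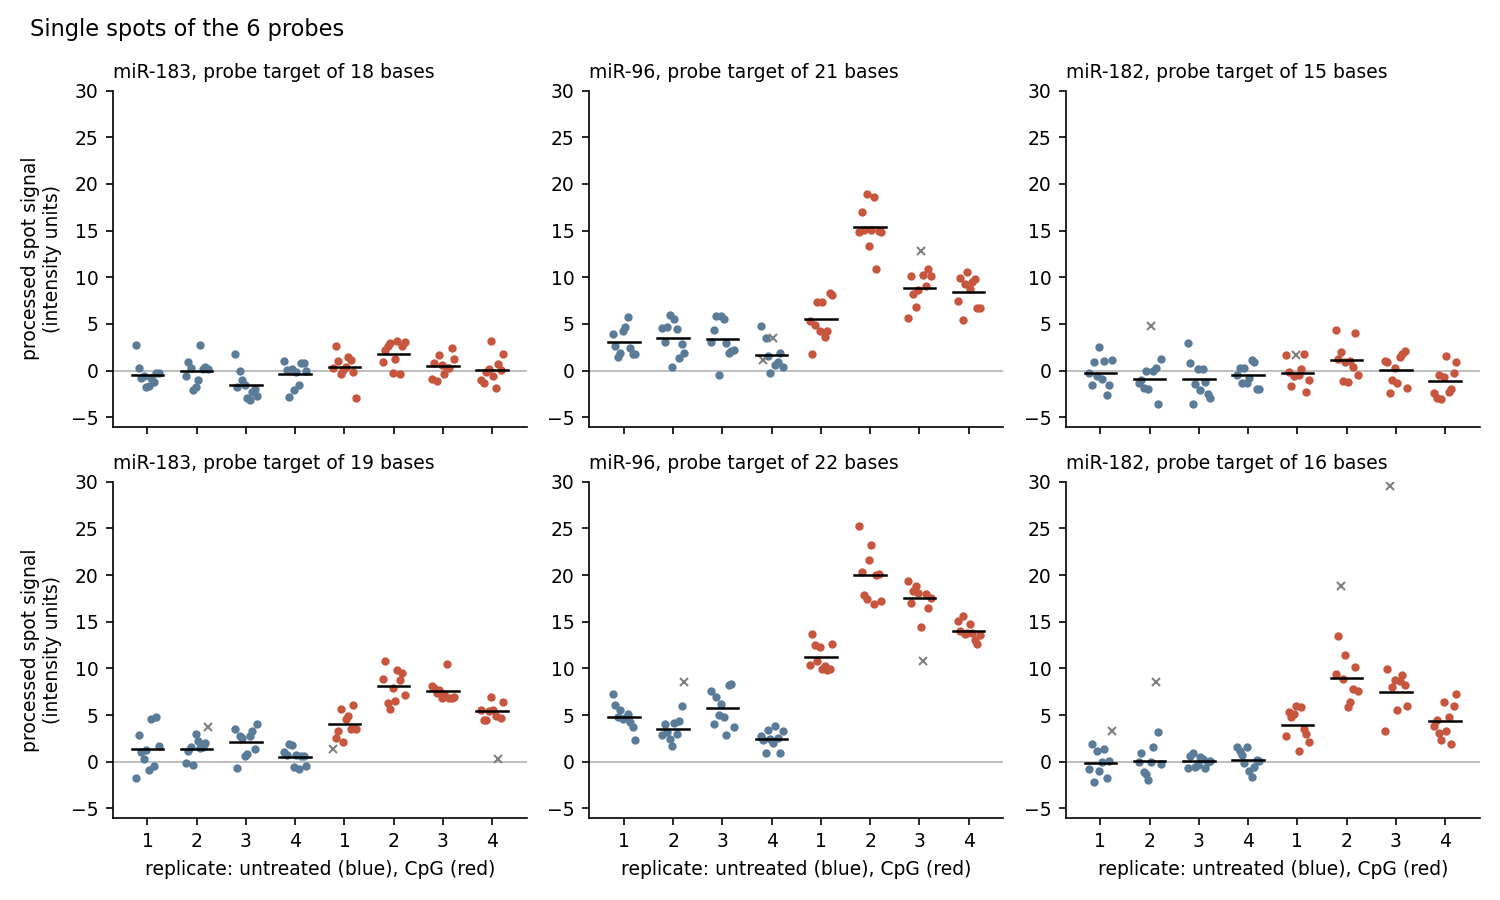
Processed signal of every spot (intensity units, linear axis) of the 6 probes on the 8 arrays, with replicates 1 to 4 of untreated cells in blue, then of CpG-treated cells in red, black lines for the mean of the spots kept and grey crosses for spots with an outlier flag, which were left out. One crossed miR-182 spot on CpG replicate 3, at 65.6 units, is drawn at the top edge of its panel; the shorter miR-182 and miR-183 probes stay near 0 in both groups, and the longer ones lie higher on the CpG arrays.

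Ranked by total gene signal among the 567 mouse miRNAs on each array, miR-96 lay at rank 184 to 208 (median 189) in untreated and 143 to 179 (median 154) in CpG-treated cells. The untreated signals of miR-183 and miR-182 were near or below 0, so their ranks there order background and are not given. Ranks depend on how well each probe binds and do not order the miRNAs by molecule number.

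The other miRNAs that were detected on all CpG and no untreated arrays were miR-467e, miR-715 and miR-874. Their mean total gene signals went from 3.04 ± 0.696 to 7.52 ± 2.16, from 2.69 ± 1.19 to 5.74 ± 0.911, and from 2.11 ± 0.726 to 7.04 ± 0.675 intensity units (SD, n = 4). Scaled, they went from 1.78% to 2.50%, from 1.67% to 2.01% and from 1.22% to 2.46% of the 75th percentile, against 2.90% to 5.92% for miR-96.

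Profiles over the 8 arrays were compared with that of miR-96 by the root mean square difference of log2 values centred on each miRNA's mean, which is smaller for more alike profiles. Over 211 tested miRNAs together with miR-183 and miR-182 the median was 0.774. The nearest were miR-674 at 0.289, miR-29b* at 0.315, miR-101b at 0.337, miR-222 at 0.378 and miR-22* at 0.385. Their log2 differences, CpG minus untreated, were 1.21, 0.84, 0.75, 1.14 and 0.74, beside 1.05 for miR-96. miR-183 and miR-182, mostly at the floor, stood at 0.389 and 0.424. The likeness is over only 8 arrays that share the treatment contrast. Since the members were chosen on that contrast, nothing is read from their closeness to miR-96.

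Other miRNAs bearing on the cluster were read from a fit over all 212 miRNAs detected on at least 3 arrays of a group (limma, Benjamini-Hochberg adjusted p under 0.05). In it 16 were higher (7.55%) and 14 lower (6.60%) with CpG, and the median log2 difference was -0.19. The members are not counted in what follows.

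Each miRNA was placed by 1 position from the array annotation, so one with several loci could be missed. Of 22 other miRNAs so placed on chromosome 6, miR-183* among them, 8 were tested. Of these 1 was higher and 0 were lower, and their median log2 difference was -0.04. The one that rose was miR-29b*, the discarded strand of a miR-29 hairpin 893 kb away, at 0.84 (SE 0.24, adjusted p = 0.0458 in limma). It passed the threshold in 12 of 24 settings tried. miR-29a, a guide strand of the same locus and well expressed, differed by 0.05 (SE 0.18). Without scaling miR-29a differed by 0.85 (adjusted p = 0.0156 in limma) and miR-29b* by 1.64 (adjusted p = 0.00063 in limma). The nearest other miRNAs, miR-335-3p and miR-335-5p at 572 kb, were detected on no array, as were 13 of the 22.

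miRNAs with a related seed could stand in for a member on its targets. RefSeq has 2 mouse miRNAs that share bases 2 to 7 or 3 to 8 with a member, miR-1271-5p and miR-7022-5p, and neither was among the probes analysed.

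Of 12 other miRNAs reported to act on Foxo1 or Foxo3 mRNAs, 11 were tested, 2 were higher and 2 lower, with a median log2 difference of -0.31. miR-155, a miRNA known to be induced in activated immune cells, rose by 1.92 (SE 0.24, adjusted p = 0.00096 in limma), and miR-222 rose by 1.14 (adjusted p = 0.0111). miR-139-5p fell by 1.01 (SE 0.17, adjusted p = 0.00768). miR-223, an abundant miRNA of myeloid cells, fell by 0.60 (SE 0.15, adjusted p = 0.0284). Of 24 settings tried, miR-155 passed the threshold in 24, miR-222 in 23, miR-139-5p in 22 and miR-223 in 12. Without scaling miR-139-5p was at -0.21 (adjusted p = 0.43) and miR-223 turned to 0.20 (adjusted p = 0.47), so neither fall holds on the unscaled signal. miR-135a was detected on no array. Foxo mRNAs were not measured.

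Cells in which the cluster is usually abundant were looked for by their own miRNAs. Of 7 epithelial miRNAs (the miR-200 family with miR-141 and miR-429, miR-203 and miR-205), 3 were tested and none passed in either direction, with a median log2 difference of -0.17. Their summed scaled signal was 13.4% to 16.8% of the 75th percentile in untreated and 10.8% to 12.3% in CpG-treated cells, and 4 of the 7 were detected on no array. miR-200b was detected on all 8 arrays and differed by -0.59 (SE 0.20, adjusted p = 0.0764 in limma). Without scaling it differed by 0.21 (adjusted p = 0.485 in limma). miR-141 and miR-200c were each detected on 1 untreated and 4 CpG arrays. Without scaling miR-141 differed by 0.74 on the log2 scale (adjusted p = 0.0435 in limma) and miR-200c by 0.62 (adjusted p = 0.0761), where with scaling they stood at -0.06 (adjusted p = 0.784) and -0.17 (adjusted p = 0.467). Of 7 neural and retinal miRNAs on the array, 4 were tested and none passed, with a median of -0.17. Their sum was 24.2% to 32.5% in untreated and 21.9% to 26.7% in CpG-treated cells. miR-128 and miR-219 were detected on all 8 arrays, and miR-211, miR-204 and miR-184 on some. miR-124, the defining neural miRNA, and miR-218 were detected on no array. The part of such cells in the members' signal was not tested.

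The myeloid markers miR-223, miR-142-3p and miR-142-5p were detected on all 8 arrays, with a summed scaled signal of 1930% to 2257% in untreated and 1428% to 1771% in CpG-treated cells. Among lymphoid markers miR-181a and miR-181b were detected on all arrays and miR-150 on none. The lymphoid sum was 129% to 159% in untreated and 96.3% to 158% in CpG-treated cells. Erythroid and endothelial markers were detected on no array. Of 4 stromal markers listed, 3 were matched on the array, and none of these was detected. Among the muscle markers only miR-206 was detected, on 3 CpG arrays. A change in the share of cells that carry these miRNAs and a change in RNA per cell cannot be told apart in such bulk RNA.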

How the data were processed

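The members and all lists were chosen with earlier results of these data known. The authors deposited scanner output whose processed signal is an intensity per spot (Agilent software Feature Extraction, version 9.5.3.1 per the file headers), and per-miRNA summaries with a total gene signal (an intensity) and detection flag. A table for the series, deposited by the authors, lists 260 miRNAs as intensities, and its 2080 values equal the total gene signals within 0.1%, with signals at or below 0 written as 0.01. The submitters' processing notes name limma and give no version.

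Spots without outlier flags were averaged per probe (of the members' 480 spots, 14 were left out), then probes per miRNA. Each array was scaled to its 75th percentile among 177 mouse miRNAs that all arrays detected, and values were floored at 0.0107 (log2 -6.55) and put on the log2 scale. The number of arrays, 4 per group, limits the precision.

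limma 3.58.1 in R 4.3.3 (lmFit, eBayes, two-sided) compared the groups over 212 miRNAs detected on at least 3 of 4 arrays of a group, with Benjamini-Hochberg adjustment at 0.05. On simulated data of 212 miRNAs it recovered 80.0% of changes of log2 1 and 99.2% of log2 2, with 4.02% false calls. The simulated data had independent normal noise, as many rises as falls, no floor and no brighter group. Their error rates therefore do not carry over to these arrays. Alternatives changed scaling, background, floor, probe summary, filter, blocks and single arrays. Named miRNAs were the members and other arms of their hairpins, miRNAs detected on all CpG and no untreated arrays, the 5 closest profiles to miR-96, list members past the threshold or among the 4 brightest, and detected markers.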

Additional observations from a re-analysis of the deposited data

Results flagged for a closer look

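In groups of 4 arrays the extreme value of each member's probes and totals was set against the others with Dixon's test. It stood apart in 3 of 36 groups checked, where chance gives about 1 in 20. For the 21-base miR-96 probe, untreated replicate 4 had a total probe signal of 1.16 intensity units, below the other untreated arrays at 2.16 to 2.36. The others were the 14-base and the 15-base probe of miR-183*, which was detected nowhere. The total signal of the 14-base probe on CpG replicate 1 was -0.291 intensity units beside -0.539 to -0.535, and that of the 15-base probe on CpG replicate 4 was -0.509 beside -0.138 to -0.0781.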

How the results depend on the processing

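The log2 difference of miR-96, 1.05, became 1.85 without scaling, 1.60 scaled to the hur features, and 0.89 to 1.26 without 1 array. That of miR-182, 0.51, became 0.00 with a floor 2 times higher, 1.28 with one 2 times lower, 0.099 with the brightest probe, 0.067 in row 1, 0.94 in row 2, and 0.36 to 0.66 without 1 array. That of miR-183, 0.58, became 0.020, 1.55, 0.072, 0.19, 0.98, and 0.43 to 0.77 in the same order. With the brightest probe the scaling and the floor were computed anew from such probes. The values 0.099 and 0.072 thus depend on that floor and do not give the rise in intensity of the longer probes. After normexp correction all turned, to -0.21, -0.16 and -0.17. The correction adds an offset of 50 units to every spot, more than the members' own signals. Whether the offset accounts for the turn was not tested. The 4 miRNAs detected on all CpG and no untreated arrays were 0 when detection meant a scaled signal above the floor, and 4 to 10 without 1 array (10 without CpG replicate 1, 7 without untreated replicate 2).

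The 30 miRNAs past the threshold became 88 without scaling (88 higher, 0 lower, median shift 0.60), 69 with hur (67 and 2, median 0.35), 18 with the median (11 and 7), 17 with quantiles (9 and 8), 143 with normexp (4 and 139), 48 with the higher floor, 16 with the brightest probe (12 and 4) and 3 without a filter. With the 75th percentile over all miRNAs the split was 16 and 7. Leaving out 1 array gave 5 to 71: 11, 5 and 14 without untreated replicates 1, 2 and 4, and 71, 13 and 7 without CpG replicates 1, 2 and 3. Untreated and CpG arrays of the same replicate number were not clearly alike (correlations of deviations 0.28, -0.26, 0.25 and 0.096). Of 8 arrays, 2 were closest to their own number. So few arrays cannot exclude pairing by number, and the main fit left the arrays unpaired. The replicate block gave 38 calls (16 higher, 22 lower).

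Of the chromosome 6 miRNAs, 1 call became 6 without scaling and with normexp, 4 with hur, 0 with the median, quantiles, median of spots, brightest probe, no filter or row block, and 0 to 2 without 1 array. The 4 Foxo calls became 7 with normexp, 1 without a filter and 3 to 6 without 1 array. The 0 neural calls became 4 with normexp and 0 to 1 without 1 array, and the 0 epithelial calls 1 without scaling, 3 with normexp and 0 to 1 without 1 array. Causes of these shifts were not tested.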
